A study of Leptinotarsa decemlineata with 61 samples.

Results

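Male-higher genes of adult Colorado potato beetles, Leptinotarsa decemlineata, were taken from the 3 organs sampled in both sexes in sets of 3 libraries: fat body, midgut and malpighian tubules. A gene was kept where, in at least 1 of these organs, the male mean was at least 10 TPM (a share of all transcripts in a library, scaled for transcript length), the male mean plus 1 was at least 4 times the female mean plus 1, and the lowest male library exceeded the highest female library. Genes that met the mirrored rule for females in any of the organs were dropped. The rule gave 125 of the 15578 genes of the table. It was met by 126 genes before the mirrored rule removed 1 of them, and 93 genes met the mirrored rule. The genes were chosen by the male and female levels in these 18 libraries, so the sex differences in fat body, midgut and tubules are given as a description, with no test.

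All libraries come from untreated wild-type beetles of the E06 strain. Adult organs were dissected 7 days after emergence and organs of last-instar (L4) larvae 19 days after egg laying, each from a single individual, whereas eggs were pooled by 5 and L1 to L3 larvae by 3. The comparison of the sexes rests on 3 male and 3 female libraries per organ, 18 in all, and was followed into hindgut (3 male, 2 female and 3 larval libraries), aedeagus, genital ducts, testes, ovaries, larval hemolymph, larval midgut and fat body, and whole eggs and larvae. Whether organs with the same library number came from 1 animal is not given in the labels, so a group of 3 libraries stands for 3 dissections and its spread includes differences between individuals.

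The fat body of insects stores fat and glycogen, supplies most hemolymph proteins and, in adult females, makes yolk protein. The midgut secretes digestive enzymes and absorbs nutrients, the malpighian tubules form the primary urine and empty at the junction of midgut and hindgut, and the hindgut takes back water and ions. The male tract joins the testes, which make sperm, to ducts and glands that make seminal fluid and to the aedeagus, the intromittent organ. The identifiers of the table carry no gene names or functions in the sources used here, so each gene is described by its level and its position.

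The 18 libraries held 13502057 to 18099317 read pairs on genes of the table, and 1 read pair on a gene of the median length of 1209 bp corresponded to at most 0.0781 TPM. Each library carried the marker genes of its own organ: the 39 fat body markers had a median log2(TPM + 1) of 3.71 to 4.80 in adult fat body, the 337 midgut markers 7.06 to 7.22 in male and up to 7.22 in female midgut, and the 110 tubule markers 6.73 to 7.17 in adult tubules. Marker genes are those with a tissue specificity index tau above 0.85 and a median above 10 TPM in that organ, computed without the male libraries of the shared organs, and without the male-higher genes. Male fat body replicates 1 and 5 and male fat body replicate 7 stood apart from each other, and the labels do not say how the sex or tissue of a library was checked, which bears on every male fat body value. Male midgut carried hindgut markers at a higher summed level than female midgut. Male hindgut replicates differed in tubule markers. The counts of genes that met the rule, and of genes called in hindgut, are given below with these libraries and without them. The hindgut calls without them kept the genes chosen with all libraries. Levels in other organs, highest organs, tau, positions and the comparison of testes and ovaries were not redone for genes chosen without these libraries.

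By organ, 50 of the genes met the rule in fat body, 50 in midgut and 30 in tubules, which is 0.321%, 0.327% and 0.193% of all genes counted before the mirrored rule. The mirrored rule was met by 27 genes in fat body (0.173%), 12 in midgut (0.077%) and 71 in tubules (0.456%). The ratio of male to female mean, each plus 1, had a median of 7.91 over the fat body genes (4.06 to 465), 10.8 over the midgut genes (4.04 to 750) and 8.27 over the tubule genes (4.12 to 3054). Male means had a median of 90.5 TPM in fat body, 49.2 TPM in midgut and 38.0 TPM in tubules, and female means ranged from 0 to 126 TPM, 0 to 94.3 TPM and 0 to 608 TPM. All 3 male libraries, each plus 1, reached 4 times the highest female library plus 1 for 2 of the 50 fat body genes, 16 of the 50 midgut genes and 11 of the 30 tubule genes.

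**Figure D1:**
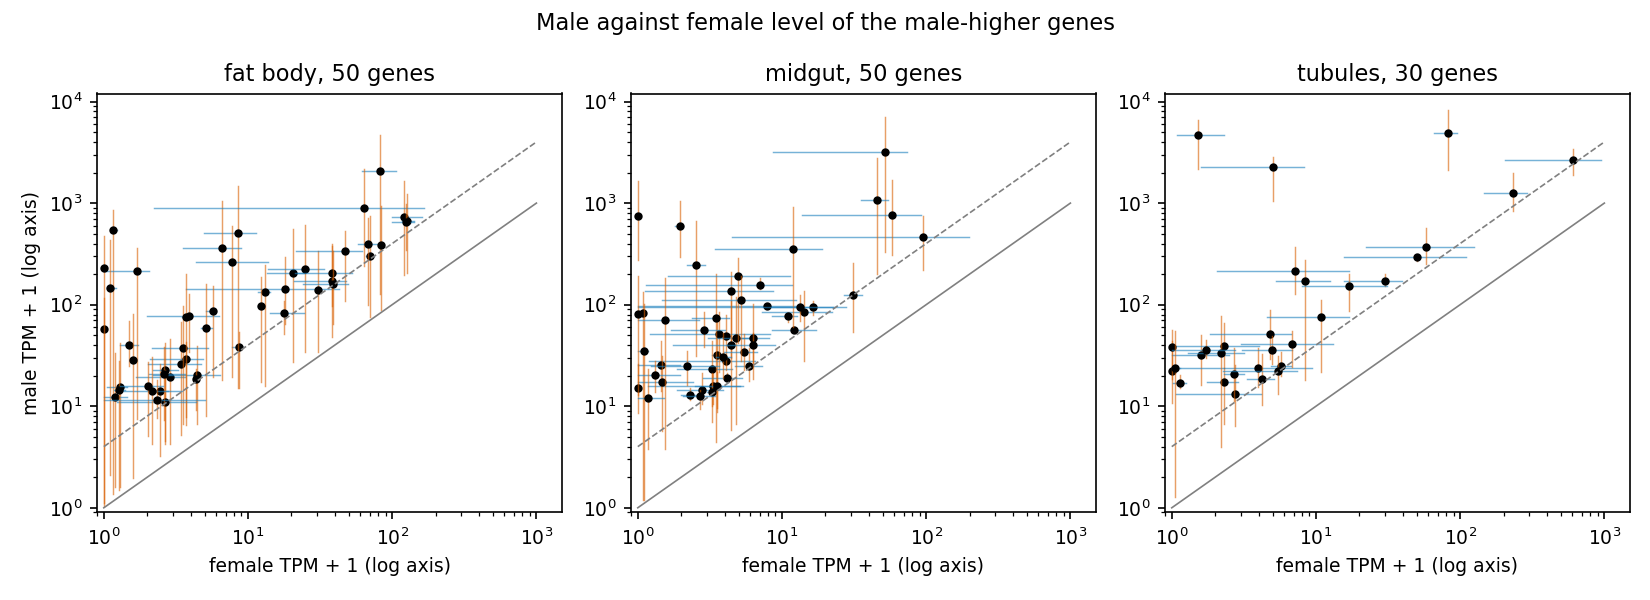
Female (x) against male (y) level of each male-higher gene, TPM + 1 on log axes, in fat body, midgut and tubules. Points are means of 3 libraries, orange vertical lines span the 3 male libraries and blue horizontal lines the 3 female libraries. The solid line marks equal levels and the dashed line 4 times the female level. In tubules the gene at the upper left is LdNA_21131, with male values of 2183 to 6583 TPM.

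Of the 125, 120 genes met the rule in 1 organ, 5 in 2 organs and 0 in all 3. In the other organs, the 50 fat body genes had the lowest male above the highest female for 16 genes in midgut, against 21.6% of all genes, and for 2 genes in tubules, against 2.92% of all genes. The 50 midgut genes did so for 4 genes in fat body, against 4.61% of all genes, and for 3 in tubules. The 30 tubule genes did so for 2 in fat body and 7 in midgut. These counts include the 5 genes that met the rule in 2 organs, whose order in both was set by the rule. The reverse order, every female above every male, was seen in tubules for 7 of the fat body genes, against 7.23% of all genes.

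LdNA_14839 (chromosome 7, 27504737 to 27511958, 2 exons) met the rule in fat body and tubules. Its level in male tubules was 142, 125 and 369 TPM against 1.41, 1.06 and 16.0 TPM in females. Male fat body had 755 and 860 TPM in replicates 1 and 5 but 0.356 TPM in replicate 7, against 0.122 to 0.238 TPM in females, so that only 2 of the 3 males were clearly above the females there. The gene was also at 94.2 to 265 TPM in male hindgut and at 107 and 126 TPM in female hindgut. LdNA_14832 lies 128688 bp from it on chromosome 7 and was a tubule gene of the same shape, at 26.2, 23.0 and 65.5 TPM in male tubules against 0 to 3.02 TPM in females. Male fat body had 158, 186 and 0 TPM of LdNA_14832 against 0 to 0.0673 TPM in females, which missed the rule because replicate 7 was at 0.

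LdNA_33572 (chromosome 18, 4003411 to 4013364, 4 exons) met the rule in midgut and tubules. Male tubules held 2819, 1054 and 2856 TPM against 7.20, 0.590 and 4.20 TPM in females. Male midgut held 162, 28.8 and 211 TPM against 0.118, 2.58 and 7.60 TPM in females. The male levels were more than 10 times lower in midgut than in tubules, while the female levels of the 2 organs overlapped. LdNA_28785 (chromosome 14, 41683830 to 41685162) also met the rule in these 2 organs, at 666, 30.6 and 31.0 TPM in male midgut against 1.21 to 1.95 TPM in females. In male tubules LdNA_28785 had 9.84, 43.3 and 10.8 TPM and in female tubules 0 TPM, which puts the male mean at least 17.2-fold above the level that 3 read pairs per library would give.

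LdNA_12037 (chromosome 6, 5487048 to 5487521, a single exon) and LdNA_23817 (chromosome 12, 17654499 to 17659597, 4 exons) met the rule in fat body and midgut. LdNA_12037 had 43.4, 53.2 and 14.3 TPM in male fat body against 6.76 to 8.28 TPM in females, and 36.3, 16.8 and 17.8 TPM in male midgut against 3.74 to 6.32 TPM in females. LdNA_23817 had 14.2, 22.6 and 1486 TPM in male fat body against 3.95 to 10.4 TPM in females, and 70.4, 7.73 and 14.5 TPM in male midgut against 2.29 to 2.85 TPM in females. In hindgut the levels were 501 to 2246 TPM for LdNA_12037 and 367 to 7565 TPM for LdNA_23817 over the male, female and larval libraries. For LdNA_23817 the 1486 TPM of male fat body replicate 7 lies within that range, and its other fat body and midgut values lie below it.

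The 50 fat body genes fell into unequal patterns over the 3 male libraries. Replicate 7 was at least 4 times both other males for 19 genes, on the scale of TPM plus 1, and both others were at least 4 times replicate 7 for 12 genes. Replicate 1 alone stood 4 times above both others for 3 genes and replicate 5 for 1 gene. Of the male sum, over 80% came from replicate 7 for 14 genes, from replicate 1 for 2 and from replicate 5 for 1.

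**Figure D2:**
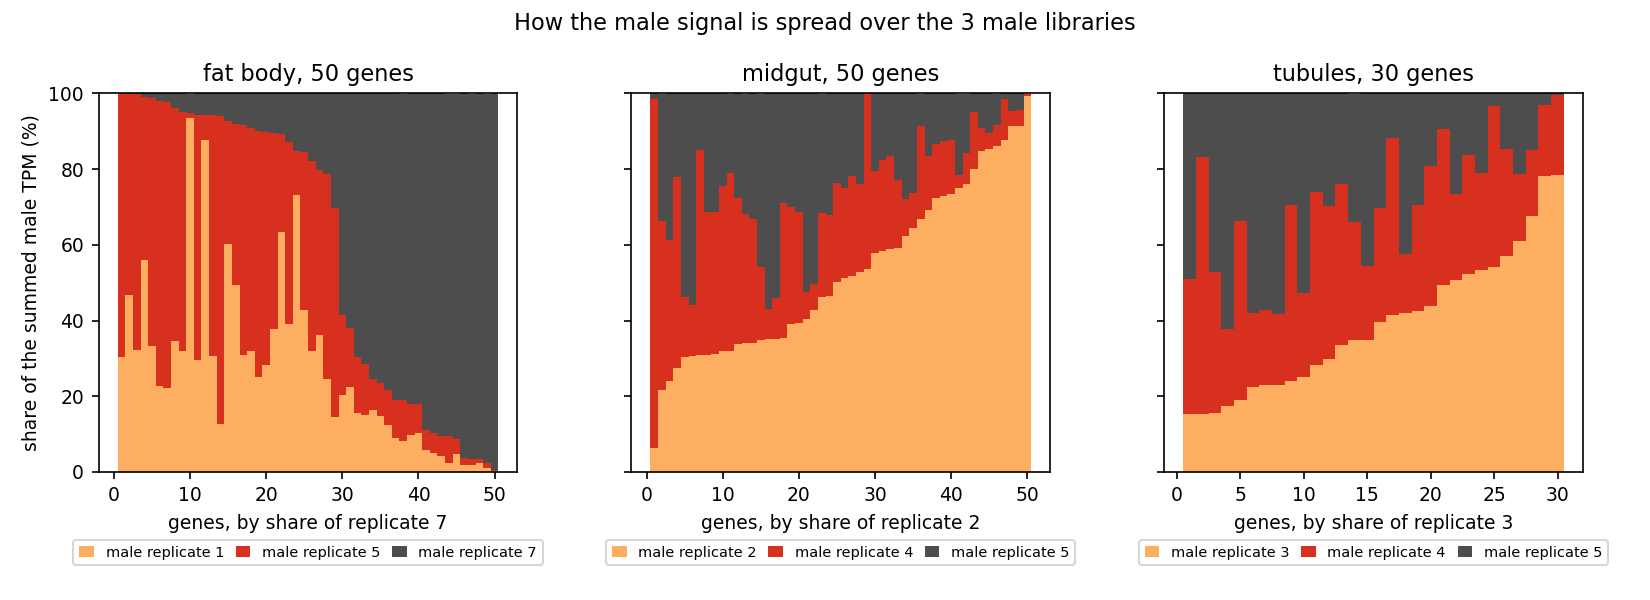
Share of the summed male TPM (y, percent) that each of the 3 male libraries contributed, 1 bar per gene (x), ordered within each organ by the share of 1 library. In fat body the bars turn from nearly all replicates 1 and 5 to nearly all replicate 7. In tubules no library gave over 80% of any gene.

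LdNA_6662 (chromosome 3, 38132609 to 38157085, 6 exons) and LdNA_18567 (chromosome 9, 19767457 to 19791711, 6 exons) were high in replicates 1 and 5. LdNA_6662 had 207, 476 and 0.0482 TPM in the males and 0 TPM in every female library, a male mean at least 1152-fold above the level of 3 read pairs per library, carried by replicates 1 and 5 alone. LdNA_18567 had 357, 276 and 6.57 TPM against 0 to 1.05 TPM. LdNA_18567 overlaps a gene on the opposite strand, and since the libraries did not keep the strand its reads could belong to either gene. In this group the levels elsewhere were uneven: LdNA_6662 had 51.3 to 85.0 TPM in male hindgut and 72.0 and 76.9 TPM in female hindgut, while LdNA_18567 was otherwise highest in genital ducts, at 114, 21.7 and 256 TPM.

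LdNA_22985 (chromosome 11, 45634916 to 45658228, 7 exons) had the opposite shape, at 1.53, 1.12 and 429 TPM in male fat body against 0.0529 to 0.216 TPM in females. Its level in midgut was 119 to 214 TPM in males and 121 to 203 TPM in females. LdNA_447, on the unplaced contig utg000093l, also followed replicate 7, at 239, 272 and 2166 TPM in males against 1.22 to 165 TPM in females. It had the highest male mean of these 19 genes. The 19 genes high in replicate 7 had a median over genes of 88.3 TPM in white and 141 TPM in yellow larval fat body, and 7 of them had their highest sample type in yellow larval fat body, which is 1 library. The 12 genes low in replicate 7 had medians of 1.60 and 5.11 TPM there, and 7 of them had their highest sample type in male fat body.

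Male fat body replicate 7 decided how many genes the rule found in fat body. Without it, 225 genes met the rule in fat body, of which 31 were among the 50, 10 were genes of another organ only, and 184 were not among the 125. Replicate 7 was at or below the highest female library for 183 of the 225. LdNA_19911 (chromosome 10, 7408175 to 7423838), counted here as a tubule gene, was the highest of them, with 15993 and 34725 TPM in replicates 1 and 5, 31.6 TPM in replicate 7 and 64.0 to 104 TPM in females. LdNA_28542, which is not among the 125, had 6546 and 15352 TPM in replicates 1 and 5 and 0 TPM in replicate 7 and in every female library. Leaving out male replicates 1 and 5 together gave 215 genes in fat body, of which 22 were among the 50. Without 1 library, counts moved by over 1.5 times also without male replicate 5 (78 genes), without female replicate 2 (107) and without female replicate 6 (78).

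Markers of other organs moved with these libraries. Male fat body replicate 1 carried the 131 aedeagus markers at a median log2(TPM + 1) of 2.28, against 0.20 to 0.34 in the other 5 fat body libraries, with 4 of them at 0 against 37 to 46. Their sum was 8023 TPM there, 968 and 348 TPM in the other males and 475 to 747 TPM in females. Testis markers, 944 genes, summed to 689 TPM in replicate 1 and 62.9 to 145 TPM in the other fat body libraries. LdNA_16211, LdNA_15571 and LdNA_25466, the 3 genes high in replicate 1 alone, had aedeagus medians of 2546, 257 and 291 TPM. The duct markers, 55 genes, summed to 6664 and 15404 TPM in replicates 1 and 5 against 4.23 to 30.2 TPM in the others, of which LdNA_28542 made up 6546 and 15352 TPM. The median log2(TPM + 1) of the 55 was 0 to 0.19 in male and 0 to 0.05 in female fat body. Male fat body was left out when the markers were chosen, so a gene high there could count as a duct marker. The 82 hemolymph markers summed to 2742 TPM in replicate 7 against 43.4 to 176 TPM in the others. Their median log2(TPM + 1) was 0.28 to 0.94 in male and 0.47 to 0.56 in female fat body, so only part of the 82 genes carried that sum. What share of the fat body genes goes with these markers was not tested. In such bulk tissue, a change in the share of a cell type and a change in RNA per cell cannot be told apart.

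**Figure D3:**
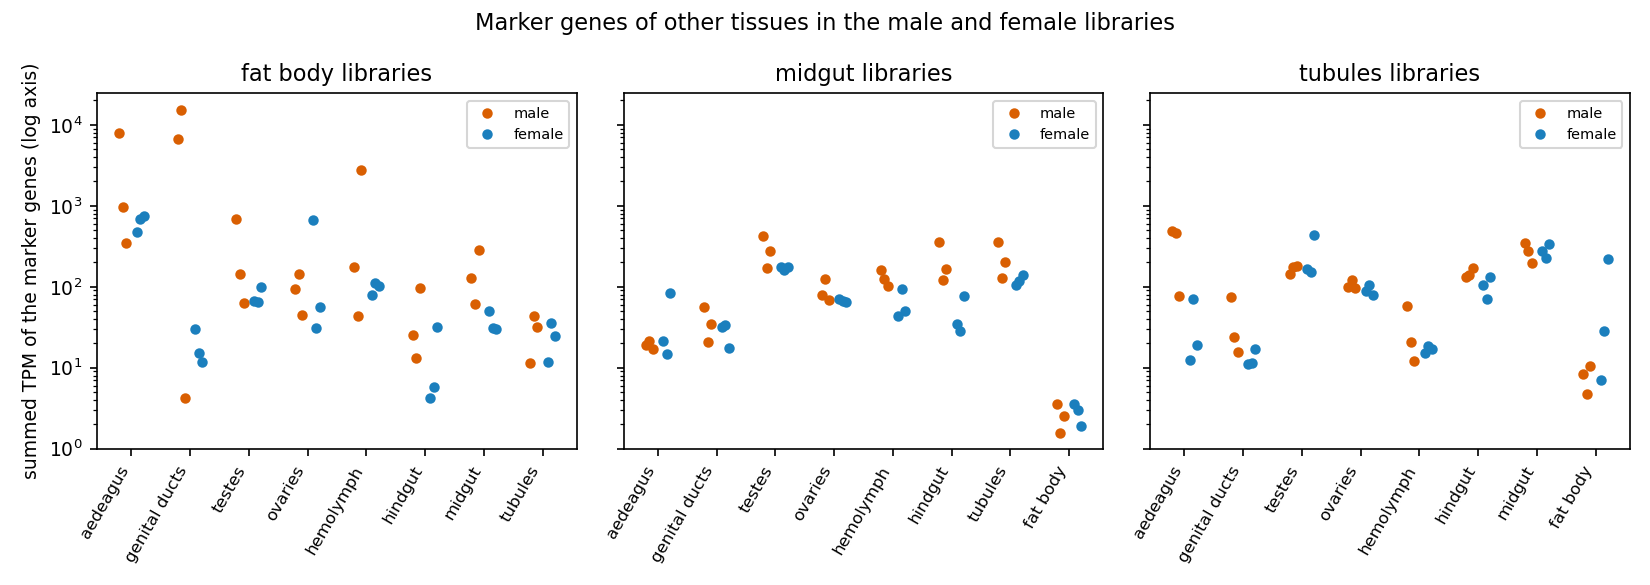
Summed TPM (y, log axis) of the marker genes of other organs (x) in each male (orange) and female (blue) library of fat body, midgut and tubules. Male fat body replicates 1 and 5 stand out for the sum of the duct markers, nearly all of it from the single gene LdNA_28542. Replicate 1 stands out for aedeagus markers at 8023 TPM and replicate 7 for hemolymph markers at 2742 TPM. In midgut all males lie above all females for hindgut markers.

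In midgut, male replicate 2 had the highest of the male values for 31 of the 50 genes, and was at least 4 times both others for 13. Without it 41 genes met the rule in midgut, and without each other midgut library 59 to 67 did. LdNA_22896 (chromosome 11, 43553562 to 43554740, 3 exons) had 1651, 320 and 276 TPM in male midgut and 0 TPM in all 3 females, a male mean at least 3367-fold above the level of 3 read pairs per library. LdNA_21276 (chromosome 10, 51078859 to 51082869, 4 exons) had 1050, 440 and 295 TPM against 0.819 to 1.07 TPM. LdNA_7995 (chromosome 4, 12956261 to 12964362, 2 exons) had 190, 35.3 and 11.9 TPM against 0 TPM, at least 225-fold above that floor. Male replicate 2 was the highest of the 3 males for all of these genes.

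The same 3 genes were hindgut genes by level. LdNA_22896 had 29907 to 130933 TPM in male hindgut and 61849 and 110642 TPM in female hindgut. LdNA_21276 had 26428 to 35666 TPM in males and 37328 and 39968 TPM in females, and LdNA_7995 had 1892 to 4594 TPM in males and 1247 and 7311 TPM in females. Of the 50 midgut genes, 25 had their highest median in hindgut, 8 in tubules, 5 in aedeagus and 5 in midgut itself. The same shares over all genes are not given here. The hindgut median was above the male midgut mean for 36 of them and at least 10 times as high for 28. LdNA_22896 and LdNA_21276 were also found in 2 of the 3 larval midgut libraries, at 366 and 1367 TPM and at 606 and 1701 TPM, with 0 and 1.29 TPM in the third.

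Hindgut markers that are not among the 125 were also higher in male midgut. Of these 55, 30 (54.5%) had every male midgut library above every female one, against 21.6% of all genes, and 0 the reverse, against 1.32% of all genes, and they summed to 120 to 358 TPM in males and 28.7 to 77.3 TPM in females. Of the 55, 4 were at 0 in all male and 25 at 0 in all female midgut libraries. Relative to hindgut, their median level was 2.47%, 0.818% and 0.586% in the 3 male libraries and 0% in each female library. The 28 genes at least 10 times higher in hindgut stood at a median of 3.16%, 1.55% and 1.67% of their hindgut level in males and 0.108% to 0.218% in females. Tubule markers, 110 genes, had 31 (28.2%) with every male midgut library above every female one, against 21.6% of all genes, and 0 the reverse. They summed to 128 to 355 TPM in males and 104 to 139 TPM in females. Of the 110, 1 was at 0 in all male and 32 at 0 in all female midgut libraries. Both marker lists were chosen with female and larval but without male midgut libraries. That choice favours markers low in female midgut, so these shares are not a like comparison with all genes. The part of these markers in the midgut genes was not tested. Leaving out the midgut genes at least 10 times higher in hindgut or tubules left 21 midgut genes, and 96 of the 125 in all.

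Other midgut genes were low in hindgut. LdNA_2248 (chromosome 1, 47822254 to 47824391), the highest midgut gene by male mean, had 7120, 329 and 2039 TPM in male midgut, 71.0, 7.65 and 72.8 TPM in females and at most 0.973 TPM in the 8 hindgut libraries used. A row of 5 genes on the minus strand of chromosome 14, LdNA_28783 to LdNA_28787 (41651627 to 41737311), had 2 exons and 222 to 270 bp each. LdNA_28787 had 2751, 198 and 296 TPM in male midgut against 34.6 to 53.2 TPM in females, and 19533 to 44546 TPM in larval midgut. LdNA_28783 had 1675, 328 and 310 TPM against 12.7 to 90.5 TPM, and LdNA_28784 had 915, 59.2 and 86.9 TPM against 2.46 to 18.1 TPM. LdNA_28786, the tubule gene of the row, had 1883 to 3370 TPM in male tubules and 203 to 944 TPM in females, while its midgut values overlapped, at 1009 to 4117 TPM in males and 259 to 2143 TPM in females. As neighbours of like size they may share reads, so their separate levels are uncertain.

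The 30 tubule genes were the most even over the male libraries. No library gave over 80% of the male sum of any of them, 27, 27 and 29 still met the rule without male replicate 3, 4 or 5, and 11 had male tubules as their highest sample type. LdNA_21131 (chromosome 10, 47696888 to 47710073, 6 exons) had 2183, 5226 and 6583 TPM in male tubules against 1.30, 0.200 and 0.0826 TPM in females. LdNA_21132 starts 1342 bp further on the same strand and had 17.3, 40.4 and 55.3 TPM against 0 TPM in all 3 females, at least 81.3-fold above the level of 3 read pairs per library. The 2 neighbours ranked the male libraries in the same order.

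LdNA_2417 (chromosome 1, 53892427 to 53897510, 3 exons) had 8303, 4148 and 2129 TPM in male tubules against 64.5 to 94.0 TPM in females, the highest male mean of the 30 at 4860 ± 3148 TPM (SD, n = 3). LdNA_11737 (chromosome 5, 61072803 to 61268444, 15 exons) had 833 to 1979 TPM against 146 to 288 TPM. Of the 110 tubule markers, 9 (8.18%) had every male tubule library above every female one, against 2.92% of all genes, and 24 (21.8%) the reverse, against 7.23% of all genes. The tubule medians that chose these markers came from female libraries alone, and the male-higher genes were left out. Both favour the order with females above, so these shares are not a like comparison with all genes. The sums of the 110 markers were 91998 to 172742 TPM in males and 83806 to 109367 TPM in females. Female tubule replicate 3 carried the 39 fat body markers at 219 TPM in sum, against 4.70 to 28.4 TPM in the other 5 libraries. Without male replicate 5 the count of tubule genes was 62 in place of 30, and over the other 5 libraries it was 30 to 45.

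**Figure D4:**
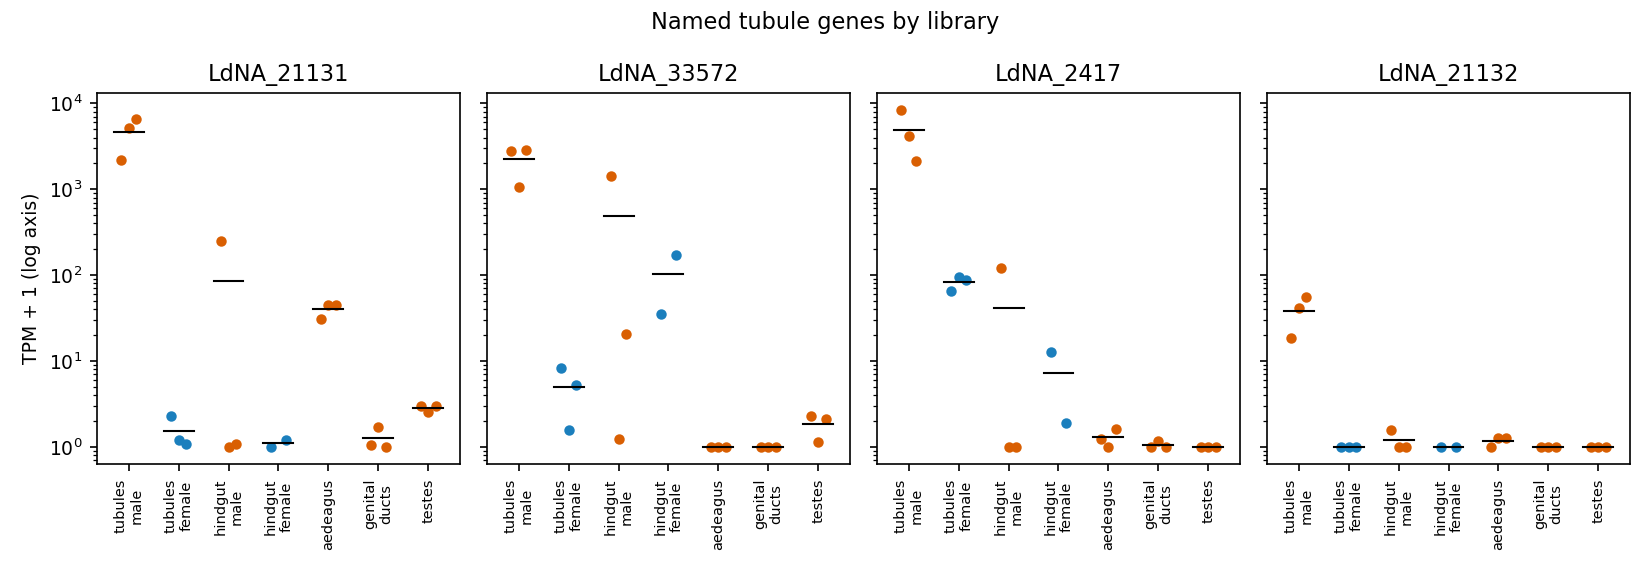
TPM + 1 (y, log axis) of the 4 tubule genes with the largest ratio, in each library of tubules, hindgut and male tract (x). Points are libraries, orange from males and blue from females, and lines are means. LdNA_21131 was at 1.30 TPM or less in the female libraries drawn and LdNA_21132 at 0, and LdNA_21131 reached 29.6 to 43.8 TPM in aedeagus.

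In the male tract, the 125 genes had a median over genes of 18.6 TPM in aedeagus, 8.20 TPM in genital ducts and 4.76 TPM in testes, against 3.77, 3.27 and 7.24 TPM over all genes of the table. A median of at least 10 TPM was reached by 72 genes (57.6%) in aedeagus and 62 (49.6%) in genital ducts, against 36.1% and 37.0% of all genes. In testes 44 genes (35.2%) reached it, against 46.4% of all genes, and 27 (21.6%) reached it in all 3 organs, against 26.8%. At least 10 TPM in none of the 3 was found for 37 genes, or 29.6%, against 43.6% of all genes. Under 1 TPM in all 3 was found for 19 genes, or 15.2%, against 19.8% of all genes, and 10 of these were tubule genes. Of the 125, 1 was a marker of aedeagus (0.8%), 1 of genital ducts (0.8%) and 2 of testes (1.6%), against 0.847%, 0.359% and 6.07% of all genes. The rule asked for a male mean of at least 10 TPM in an organ, which the genes of the table did not have to reach. The share of the 125 at 10 TPM or more was also higher than that of all genes in female hindgut (66.4% against 41.9%). In ovaries it was lower (32.0% against 42.6%).

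LdNA_14819 (chromosome 7, 27075046 to 27082134, 2 exons) was the highest of the set in both aedeagus and ducts. It had 10153, 12523 and 17070 TPM in aedeagus and 12638, 5386 and 934 TPM in ducts, and met the rule through midgut, at 95.6, 109 and 77.8 TPM in males against 0, 19.7 and 26.7 TPM in females. LdNA_16211 (chromosome 8, 6408770 to 6431794, 5 exons), a fat body gene, had 974 to 2776 TPM in aedeagus and 2222 to 2695 TPM in ducts, but also 515 to 2388 TPM in fertilized eggs. LdNA_29989 (chromosome 15, 30791561 to 30796475, 2 exons), a midgut gene, had 1307 to 3287 TPM in aedeagus, 1066 to 2456 TPM in ovaries and 2611 to 11605 TPM in hindgut. LdNA_25402 (chromosome 13, 12686681 to 12701909, 4 exons), a midgut gene, had 2455 to 3180 TPM in ducts and 1163 to 2957 TPM in aedeagus. LdNA_29989 was thus not limited to males, and LdNA_14819 was also at 832 and 2036 TPM in female hindgut.

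LdNA_17900 (chromosome 8, 57495296 to 57511369, 9 exons) was the highest of the set in testes, at 136 to 182 TPM. It had at most 0.332 TPM in aedeagus and ducts, and met the rule through midgut, where male replicate 4 held 201 TPM and replicates 2 and 5 held 13.7 and 3.45 TPM, against 1.38 to 3.31 TPM in females. LdNA_6765 (chromosome 3, 42016490 to 42044265, 6 exons), a fat body gene, was found in every library used, at 107 to 115 TPM in testes and 99.3 to 718 TPM in male fat body against 57.3 to 85.0 TPM in females. LdNA_1805 (chromosome 1, 35166728 to 35182215, 2 exons) had 155, 0.115 and 130 TPM in testes. In male midgut it had 132, 114 and 0.180 TPM against 0.0856 to 0.0959 TPM in females, so it met the rule with 1 male close to the female level. Over the 59 libraries of the atlas LdNA_1805 was at 39.4 TPM or more in 33 and at 0.754 TPM or less in 26, with 0 between, and 14 sample types held libraries of both kinds. Female fat body was one of these, with 304, 0.112 and 392 TPM, and female tubules another, with 0, 451 and 0.124 TPM.

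**Figure D5:**
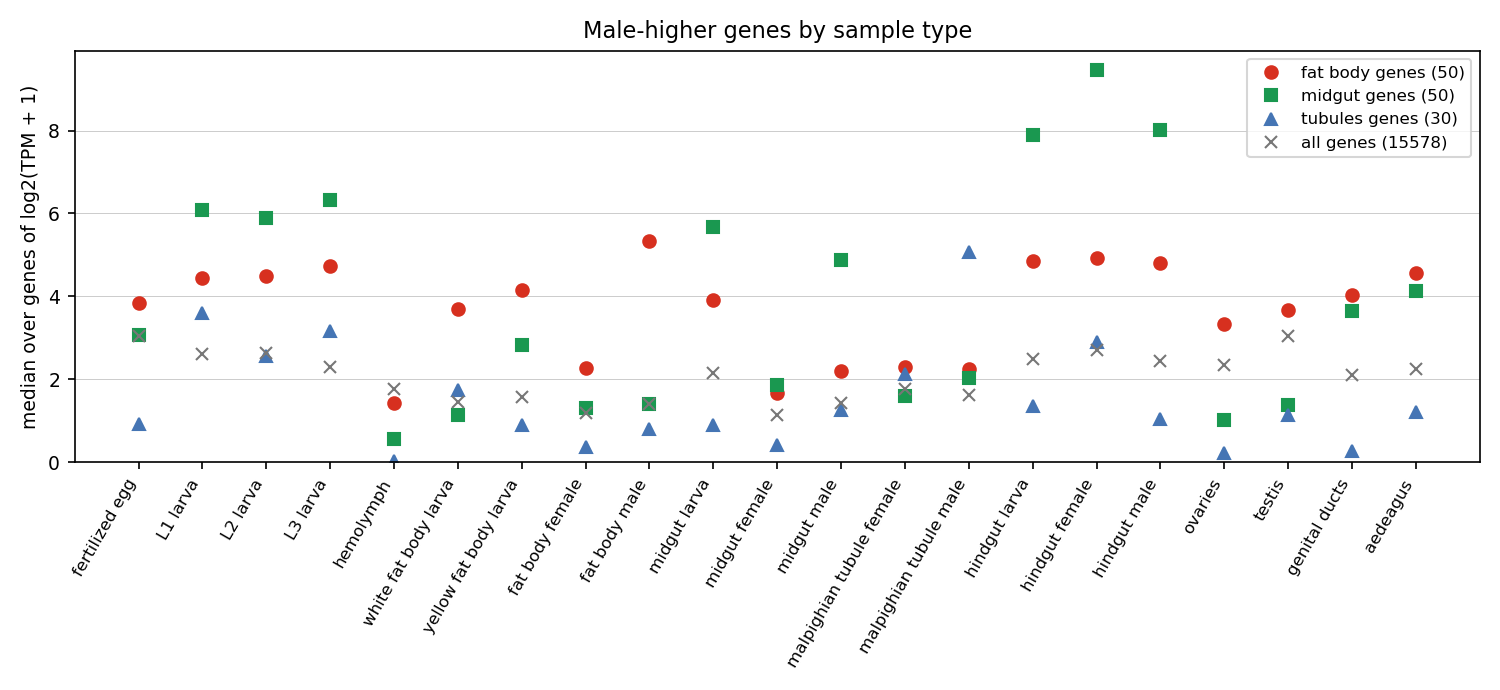
Median over genes of log2(TPM + 1) (y) of the fat body, midgut and tubule genes and of all genes in each sample type (x), taken over the median of the libraries of a type. The midgut genes peak in hindgut of both sexes and of larvae, above their level in male midgut.

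Over all sample types, hindgut was the organ with the highest median for 34 of the 125 genes, followed by tubules for 23, fat body for 14 and aedeagus for 13. By sample type, male fat body was highest for 16 genes, male tubules for 14, male hindgut for 14, larval hindgut for 12 and male midgut for 3. Ovaries were highest for 5 genes, female hindgut for 4, female tubules for 3, and female fat body and female midgut for 1 gene each. The rule itself favours male over female libraries of fat body, midgut and tubules. Counts by highest organ or sample type, here and above, have no share over all genes beside them. They describe the 125 genes and do not set them apart from other genes. The 125 genes had a median of 24.6 TPM in L1 larvae, 22.4 TPM in L2 and 27.4 TPM in L3, and 0.734 TPM in hemolymph. LdNA_2417, for example, had 114 to 189 TPM in L1 larvae, above the 64.5 to 94.0 TPM of female tubules. Tau was above 0.85 for 25 of the 125 (20%), against 29.0% of all genes.

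Along the genome the genes were spread over all 18 chromosomes and 3 lay on unplaced contigs. Chromosome 10 held 13 of them, or 10.4%, against 5.72% of all genes. Members at most 50000 bp apart formed 8 runs with 20 genes, of which the row of 5 on chromosome 14 was the longest. LdNA_33569 and LdNA_33572 on chromosome 18 were another such pair, both tubule genes, with 253 to 564 TPM of LdNA_33569 in male tubules against 21.4 to 123 TPM in females. A single exon was annotated for 3 genes, or 2.4%, against 17.0% of all genes, and the median length was 1164 bp against 1209 bp. In 8 genes the annotation overlaps a gene of the opposite strand, and their levels are uncertain.

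Hindgut was not used by the rule, although some hindgut libraries may come from the same animals as libraries of the rule. With limma on log2(TPM + 1), 113 of the 125 genes passed the filter of more than 1 TPM in at least 2 hindgut libraries. At an adjusted p below 0.05 (Benjamini-Hochberg over 11041 genes), 0 were higher in males and 0 in females, against 0% and 0.0634% of all genes tested, and 15 (13.3%) had an unadjusted p below 0.05, 4 higher in males and 11 in females, against 3.91% of all genes tested. The median male minus female difference was -0.15 over these genes and 0.08 over all genes tested. With 2 female libraries, 0 calls do not show that the levels are equal. Without male replicate 3, 5 of the genes (4.42%) were higher in females, against 0.468% of all genes tested, or 51 genes.

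Among male hindgut libraries, tubule genes were highest in replicate 3, and they were also found in females. LdNA_21131 had 251 TPM there, 0 and 0.0883 TPM in the other males and 0 and 0.204 TPM in females. LdNA_2417 had 120 TPM there, 0 TPM in the other males and 11.7 and 0.903 TPM in females, and LdNA_33572 had 1436, 0.237 and 19.7 TPM in males and 34.7 and 171 TPM in females. The 110 tubule markers had a median log2(TPM + 1) of 3.49 in replicate 3, 0.10 and 0.28 in male replicates 4 and 5, and 2.51 and 2.65 in females. Replicate 3 was above both females for 17 of the 30 tubule genes, or 56.7%, and for 62 of the 110 tubule markers, or 56.4%. The share over all genes is not given here, so whether 56.7% is unusual cannot be read from it.

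Adult males and L4 larvae were compared in hindgut in the same limma model. Of the 113 genes, 10 were higher in adult males (8.85%) and 9 in larvae (7.96%) at an adjusted p below 0.05, against 3.11% and 2.45% of all 11041 genes. LdNA_14839 was higher in males, at 198 ± 91.0 TPM against 0.367 ± 0.484 TPM (SD, n = 3 each), a log2 difference of 7.11 ± 0.42 (SE, limma, adjusted p = 0.000331). LdNA_14832 was higher as well, at 31.7 ± 14.1 TPM against 0.193 ± 0.183 TPM (log2 difference 4.69 ± 0.37). Both genes were at 0.915 TPM or less in all larval hindgut libraries.

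LdNA_22985 went the other way, at 1.56 ± 2.43 TPM in males and 40.7 ± 1.55 TPM in larvae (log2 difference -4.44 ± 0.59, limma). LdNA_28783 and LdNA_28784 of the row on chromosome 14 were also lower in males, at 0.299 and 0.147 TPM against 27.5 and 55.2 TPM (log2 differences -4.07 ± 0.67 and -5.44 ± 0.52). LdNA_27758 had 360 ± 137 TPM in males and 7985 ± 3193 TPM in larvae (-4.46 ± 0.42), and its annotation overlaps a gene of the opposite strand. The counts rested on single libraries: 10 became 3 without larval replicate 4, 5 without larval replicate 5, 6 without male replicate 3 and 4 without male replicate 5, and 9 became 5 without larval replicate 5. Scaling by median of ratios moved the median difference of all genes from 0.14 to 0.01 and the calls over all genes from 343 higher and 270 lower to 232 and 320, with 7 and 8 of the 113 called.

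Testes and ovaries were compared by limma over 12210 genes with more than 1 TPM in at least 2 of their 6 libraries, which 100 of the 125 passed. Of these, 36 were higher in testes (36%) and 29 in ovaries (29%) at an adjusted p below 0.05, against 37.8% and 22.2% of all genes tested. Under median-of-ratios scaling 36 and 33 were called, against 41.6% and 32.8% of all genes, and without ovaries replicate 1 the counts were 37 and 35 of 99, against 38.5% and 33.6%. The median difference was 0.32 over the 100 and 0.34 over all genes, and under median-of-ratios scaling 0.18 and 0.19. Among fat body genes 17 were higher in testes and 17 in ovaries of 50, among midgut genes 9 and 9 of 34, and among tubule genes 11 and 4 of 20.

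LdNA_17900 was higher in testes, at 163 ± 23.6 TPM against 0.0475 ± 0.0480 TPM in ovaries (SD, n = 3 each), a log2 difference of 7.28 ± 0.24 (SE, limma, adjusted p = 2.89e-08). LdNA_6765 was higher in testes too, at 110 ± 3.91 TPM against 46.5 ± 8.69 TPM (1.25 ± 0.25), as were LdNA_21276 (12.7 against 0.328 TPM) and LdNA_22896 (6.01 against 0.0568 TPM). LdNA_29989 was higher in ovaries, at 1903 ± 737 TPM against 0.901 ± 1.41 TPM (-10.12 ± 0.53, limma, adjusted p = 5.35e-07). LdNA_12037 was also higher in ovaries, at 284 ± 83.8 TPM against 36.3 ± 5.85 TPM (-2.90 ± 0.31). LdNA_21131, the tubule gene with the largest ratio, passed the test at a level of 1.81 TPM in testes and 0.120 TPM in ovaries.

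The threshold of 4 did not fall in a gap of the values. In fat body LdNA_29674 and LdNA_25466 lay just inside, at ratios of 4.06 and 4.12, and LdNA_11375 and LdNA_16019 just outside, at 3.97 and 3.93. In midgut LdNA_1945 and LdNA_12037 lay inside at 4.04 and 4.15, and LdNA_1453 and LdNA_2826 outside at 3.76 and 3.75. In tubules LdNA_4514 and LdNA_28786 lay inside at 4.12 and 4.32, and LdNA_25169 and LdNA_19301 outside at 3.88 and 3.68. LdNA_2241, the gene removed by the mirrored rule, was higher in female fat body, at 91.4 to 190 TPM against 0.346 to 18.7 TPM in males.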

How the data were processed

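The authors trimmed the read pairs with Trimmomatic, aligned them with STAR, counted them per gene with featureCounts (Subread 2.0.5) without strand, and deposited TPM values for 61 libraries with gene positions and lengths. Read quality had been checked with FastQC 0.11.9. No source used here names the assembly build, and positions are printed as deposited. Groups were taken from sample titles, because the tissue field often names another sample type. No sample column was left unmapped (0 columns). The 2 libraries the authors removed stayed out. From TPM and length, whole read pairs within 0.01 were recovered for 100% of values above 0, with 9913155 to 18579970 per library, and floors are 3 read pairs per library, which cover counting error only. The rule uses TPM as deposited. TPM of a gene falls where a few genes take more of a library.

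Hindgut and gonads were compared with limma 3.58.1 (R 4.3.3, trended empirical Bayes). Values were log2(TPM + 1), genes needed over 1 TPM in at least 2 of the libraries compared, with Benjamini-Hochberg adjustment at 0.05. Log2 differences on this scale understate the change of low genes. The hindgut model holds males, females and L4 larvae, which share 1 spread. Adult and L4 libraries are from separate individuals, which are the replicates. The limma test was tested on simulated data with 200 planted log2 differences of 2 in size. It recovered 99 (49.5%) for the sexes in hindgut and 117 (58.5%) for testes and ovaries, with 7 false calls in each. The simulated noise was independent between genes, and only the 200 planted genes differed. In the real values 37.8% of genes tested were called higher in testes and 22.2% in ovaries. The recovered shares therefore do not measure the power of the tests on the real values. Genes named in the text are the 4 with the largest ratio per organ and those that met the rule in 2 organs. Also named are the 3 with the highest median in aedeagus, ducts and testes, and the 2 on each side of the threshold. Of the 125, 0 passed the test of the sexes in hindgut. Any other gene named was chosen after its values were seen. The members and lists were chosen with earlier results of these data known. Alternatives covered the fold and mean thresholds, the pseudocount, scaling, filters, the trend and the replicate block. For the rule and the limma tests they also covered the omission of each library compared. Python 3.11.15, numpy 2.4.6 and pandas 2.3.3 were used. Identifiers of the reference gene table matched none of the genes, and no sequences are printed.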

Additional observations from a re-analysis of the deposited data

Results flagged for a closer look

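Several of the 125 genes were male-higher in 1 organ and female-higher in another, with no overlap between the sexes in either and a mean of at least 10 TPM in the higher sex. These differences between organs were not tested. Over all genes, every female was above every male for 1.32% in midgut, 7.23% in tubules and 5.85% in hindgut, and for 17 of the 125 (13.6%) in hindgut, where limma called 0 of them. Each size below includes the male-higher contrast that chose the gene. Values are the male minus female difference of mean log2(TPM + 1) in the first organ less that in the second, with 3 libraries a group and 2 of female hindgut.

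LdNA_21276 was higher in male midgut and in female hindgut (30384 TPM in males and 38648 TPM in females), a difference of 8.40, of which hindgut gave -0.36 on the male minus female scale. LdNA_14382 was higher in male midgut (76.6 against 9.93 TPM) and in female hindgut (872 against 279 TPM), a difference of 5.11. LdNA_21545 was higher in male tubules (169 against 29.0 TPM), but in female midgut (216 against 109 TPM) and female hindgut (477 against 293 TPM), differences of 3.56 and 3.52. LdNA_28786 was higher in male tubules and in female hindgut (182 against 83.8 TPM), a difference of 4.46. LdNA_7321 was higher in male fat body and male midgut (645 and 276 TPM) and in female hindgut (120 against 42.7 TPM), differences of 4.29 and 3.48.

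Among fat body genes set against female hindgut, the differences were 6.30 for LdNA_27773 (264 against 6.77 TPM in fat body), 6.14 for LdNA_22694 (76.1 against 2.89 TPM), 4.92 for LdNA_34210 (58.3 against 4.13 TPM), 4.15 for LdNA_29615 (27.6 against 0.584 TPM) and 3.55 for LdNA_6718 (82.1 against 16.7 TPM). LdNA_23887 and LdNA_13793 were higher in male fat body and in female tubules, with differences of 2.73 and 1.49. In female tubules LdNA_23887 had 52.5 TPM and LdNA_13793 had 92.5 TPM, against 30.9 and 80.6 TPM in males.

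The 2 libraries that the authors removed were not used in the comparisons. In female hindgut replicate 5, 9 of the 125 genes were above every other hindgut library and at 10 TPM or more (7.2%, against 4.37% of all genes), among them 5 tubule genes. In yellow larval fat body replicate 4, 33 of the 125 were above every other larval fat body library and at 10 TPM or more (26.4%, against 30.8% of all genes).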

How the results depend on the processing

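The rule gave 125 genes as stated, 64 with a fold of 8 and 169 with a fold of 3. Leaving out 1 library gave 118 to 291, the highest without male fat body replicate 7, and leaving out male fat body replicates 1 and 5, chosen after seeing the data, gave 281. Median-of-ratios scaling gave 106 genes, 97 of them among the 125. In hindgut, 0 of the 125 genes were higher in males under any alternative run, and leaving out 1 library gave 0 to 5 of them higher in females. Against L4 larvae, leaving out 1 library gave 3 to 11 higher in males and 5 to 11 higher in larvae, and no filter on low values gave 5 and 4. Among the named genes that passed, LdNA_28783 alone lost its call where it was tested, with no filter (log2 difference -4.07, limma, adjusted p = 0.0596). LdNA_14839, called between testes and ovaries, kept its call in 9 alternatives, against 11 for each other named gene of that comparison. In the remaining alternatives LdNA_14839 was not tested. For testes and ovaries, leaving out 1 library gave 32 to 37 and 23 to 35. The counts in aedeagus, ducts and testes stayed within 1.5 times with means or a level of 5 TPM. The causes were not tested. Depth limits values near 0.0781 TPM to about 1 read pair.

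Deviations of same-numbered libraries correlated at -0.18 to 0.16, for testes with ovaries and for male hindgut with larval or female hindgut. Such pairs come from different animals, so whether organs with the same number share an animal was not examined. With the replicate number as a block, 0 genes were called between the sexes in hindgut (adults only, the removed female replicate 5 included), 13 were higher in males and 20 in larvae (males and larvae only, in place of 10 and 9), and 37 were higher in testes and 33 in ovaries (in place of 36 and 29).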
